A study of Mus musculus with 3 samples.

Results

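Pericytes and vascular smooth muscle cells are the mural cells that wrap the endothelium of blood vessels, and 9 genes that mark them were followed in spinal cord RNA of mouse embryos. The genes were the rows of the expression table named Pdgfrb, Rgs5, Abcc9, Notch3, Acta2, Tagln, Myh11, Cnn1 and Vtn, and all 9 were found among 51826 genes. Cords of C57BL/6 embryos at embryonic day 13.5 came from 3 genotypes. In dE3, Nestin-Cre removed exon 3 of Ctnnb1, the β-catenin gene, which the labels call a gain of function. In cKO, Nestin-Cre removed exons 2 to 6, which they call a loss of function, and the reference was wild type (WT). The labels mention no Cre in WT, do not say how many embryos each library pools and do not say in which cells recombination took place. The Nestin promoter is used to drive Cre in neural progenitors. By its sample name the cKO library was run in another lane than dE3 and WT, so lane and genotype cannot be told apart for it. Each genotype had 1 library, so no difference has a replicate check, and the 95% intervals given below cover counting error only.

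The first mural cells reach the cord with the vessels that invade it from the surrounding plexus. Endothelial PDGF-B holds pericytes to the vessel through the receptor PDGFRβ, endothelial Notch ligands act on NOTCH3 in mural cells, and TGF-β and the transcription factors SRF and myocardin switch on the contractile genes of smooth muscle. Capillary pericytes carry Pdgfrb, Rgs5, Abcc9, Notch3 and Vtn with little contractile protein, while Acta2, Tagln, Myh11 and Cnn1 encode contractile and actin-binding proteins that rise as smooth muscle matures. Several of these genes are not private to mural cells. In mice, Acta2 and Tagln are also switched on for a time in embryonic heart and skeletal muscle, and Notch3 is made by neural progenitors.

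Acta2, which encodes smooth muscle α-actin, was the gene that differed most, so its promoter is shown together with that of Vtn, which differed in cKO. The windows are those of RefSeq on GRCm38.p6, from 250 bases before to 50 bases after the start site, and were supplied for 6 of the 9 genes (Rgs5, Abcc9, Notch3, Acta2, Cnn1 and Vtn). Both are written 5′ to 3′ on the strand of the gene.
Acta2 (chr19:34255324-34255623, minus strand, capitals mark matches to the CArG box with 1 mismatch): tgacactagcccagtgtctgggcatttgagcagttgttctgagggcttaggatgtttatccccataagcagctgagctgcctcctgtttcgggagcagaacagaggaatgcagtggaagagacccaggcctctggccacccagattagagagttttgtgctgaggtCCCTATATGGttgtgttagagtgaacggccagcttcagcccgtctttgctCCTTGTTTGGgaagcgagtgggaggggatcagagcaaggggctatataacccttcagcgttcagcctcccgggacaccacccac
Vtn (chr11:78498870-78499169, plus strand, capitals mark TGGGAA on either strand): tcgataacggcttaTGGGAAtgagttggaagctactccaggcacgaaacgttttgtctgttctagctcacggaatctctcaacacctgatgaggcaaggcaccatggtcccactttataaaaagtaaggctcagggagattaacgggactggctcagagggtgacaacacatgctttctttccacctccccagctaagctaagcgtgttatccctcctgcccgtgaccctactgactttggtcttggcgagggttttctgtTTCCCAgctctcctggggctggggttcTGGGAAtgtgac
Both strands of each window were searched for the CArG box, the site of SRF, and for TGGGAA, the core of the site of RBPJ, which carries Notch signals to DNA. None of the 6 windows held an exact CArG box, which 1.63% of 32851 supplied promoters of this length held. Acta2 held 2 matches with 1 mismatch, beginning 84 and 34 bases before the start site, and such a match was present in 21.1% of all promoters. The second of them overlaps the TGGGAA that begins 27 bases before the start. Vtn held 3 copies of the TGGGAA core and Abcc9 held 1, against 25.6% of all promoters with at least 1. A match describes the letters of a window and shows no binding.

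**Figure D1:**
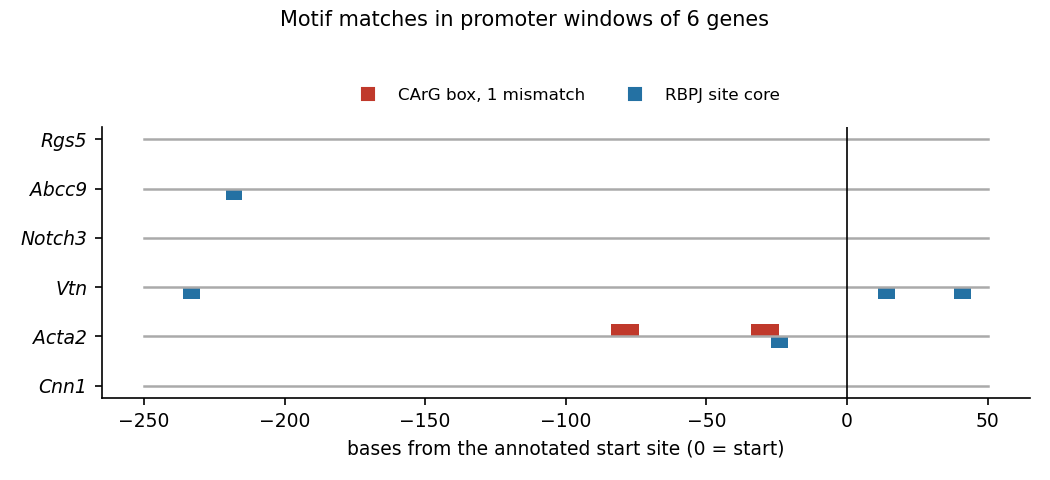
Motif matches in the promoter windows of 6 genes, with bases from the annotated start site on the horizontal axis and 1 line per gene. Red blocks are matches to the CArG box with 1 mismatch and blue blocks are copies of the RBPJ site core. Acta2 alone among these 6 windows has red blocks, and Vtn has 3 blue blocks.

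The libraries held 34790053 (dE3), 33048837 (cKO) and 32167470 (WT) estimated counts, and CPM below is the count relative to the library size after TMM scaling, a correction that assumes most genes are alike. Genes with at least 20 counts in at least 1 library were called measured, 18074 in all, and their median log2 ratio was 0.00 in dE3 against WT, 0.00 in cKO against WT and 0.02 in dE3 against cKO. Ctnnb1 itself had 461 CPM in dE3, 422 in cKO and 544 in WT, a gene total that also counts exons outside the deletions and so checks the labels only in part. All 8 Hox genes of spinal levels and all 12 neuron markers were measured in each library, with summed levels of 803 and 7221 CPM in dE3, 849 and 7500 CPM in cKO, and 911 and 7872 CPM in WT. Hoxa5 was called lower in cKO than in WT, at 68.9 CPM in cKO against 140 CPM in WT (ratio 0.492, 0.468 to 0.518), and was the 1 call in these 2 lists against WT. Among all measured genes, 3.41% were called lower in cKO against WT. Of the 8 Hox genes, 4 lay above WT in cKO and 4 below, with log2 ratios from -1.02 to 0.46. The threshold for a call, in either direction, was a ratio of 2 or more with an interval that excluded 1.

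The pericyte genes were well detected, Myh11 was low and Cnn1 was near the limit of 3 counts. Per transcript length, by the TPM values of the authors, Vtn stood highest of the 9 genes in every library, at 71.0 TPM in dE3, 128 in cKO and 74.7 in WT, followed by Rgs5. Myh11, the smooth muscle myosin heavy chain that defines the mature cell, had 0.661 TPM in dE3, 0.783 in cKO and 0.381 in WT. Cnn1, calponin, which restrains the actin-activated myosin ATPase, had 5 counts in dE3, 6 in cKO and 10 in WT and was not measured. Acta2 changed its place in the order. It was the fourth of the 9 in dE3 at 29.1 TPM, next to Notch3 at 29.8, the fifth in cKO at 18.7 TPM and the sixth in WT at 5.76 TPM, below Abcc9 at 10.7. With 1 library per genotype these orders have no spread to be read against.

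**Figure D2:**
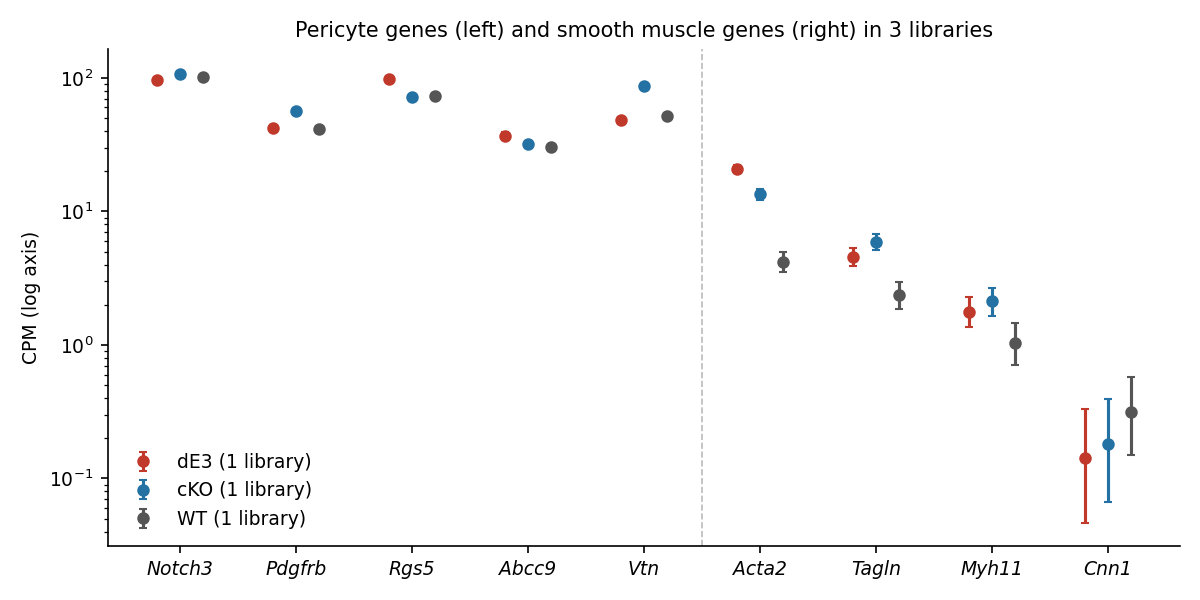
Level of each of the 9 genes in CPM (log axis) in the dE3, cKO and WT libraries, 1 point per library with the exact Poisson 95% interval of its count. Left of the dashed line, Notch3 is nearly level and Vtn is highest in cKO at 87.3 CPM. Right of it, the Acta2 points of dE3 and cKO, at 20.7 and 13.4 CPM, lie above WT at 4.19 CPM, and the Cnn1 intervals overlap.

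Acta2 was called higher in both mutant libraries, Tagln and Myh11 in cKO alone, and no pericyte gene was called in either. In dE3 against WT, 1 of 8 measured genes was called higher, where 6.52% of all measured genes were, and 0 were called lower, where 3.78% were. In cKO against WT, 3 of 8 were called higher, beside 3.50% of all measured genes, and 0 lower, beside 3.41%. Between dE3 and cKO, 0 of 8 were called either way, beside 6.62% called higher and 4.38% called lower among all measured genes. The median log2 ratio of the 8 genes was 0.35 in dE3 against WT, 0.59 in cKO against WT and -0.21 in dE3 against cKO. Both ratios to WT use the same WT library. Fewer cells of a type and less RNA per cell cannot be told apart in RNA of whole tissue, here or in the results that follow.

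Acta2 (ENSMUSG00000035783, chromosome 19, 34241090 to 34255336, minus strand, GRCm38) had 727 counts (20.7 CPM) in dE3, 444 (13.4 CPM) in cKO and 134 (4.19 CPM) in WT. Its level was high in both mutants and low in WT. It was 4.95-fold higher in dE3 than in WT (4.11 to 5.99) and 3.21-fold higher in cKO than in WT (2.64 to 3.92). Of all measured genes, 1.73% reached a ratio as high in dE3 against WT, and 1.34% in cKO against WT. dE3 held 1.54 times the Acta2 level of cKO (1.37 to 1.74), short of a call. Acta2 has close relatives among the muscle actins. By exact 50-base words it shared 0.326% of its transcript sequence with any other gene, among them the cytoplasmic actin gene Actg1. Exact words leave out near matches, so whether reads of other actins were counted at Acta2 was not tested. The Acta2 counts lay on 1 annotated transcript, Acta2-201, of 9 exons.

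Tagln (ENSMUSG00000032085, chromosome 9, 45929619 to 45936058, minus strand), which encodes the actin-binding protein transgelin or SM22α, had 161 counts in dE3, 196 in cKO and 75 in WT. These are 4.59 CPM in dE3, 5.94 in cKO and 2.35 in WT, so that both mutants again lay above WT and cKO was the highest. The ratio was 2.53 in cKO against WT (1.93 to 3.35), past the threshold, and 1.96 in dE3 against WT (1.48 to 2.61), just short of it. Much of Tagln lies opposite annotated antisense sequence. Gm48529 overlaps 3627 bases of it on the other strand and holds 55.4% of its 50-base words, and Pcsk7 overlaps 108 bases. The sources used here do not say whether counting used strand, so sense and antisense reads at Tagln cannot be told apart. No gene named Gm48529 was found in the expression table, so it has no counts to give. Pcsk7 had 39.0 CPM in dE3, 31.4 in cKO and 30.0 in WT.

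Myh11 (ENSMUSG00000018830, chromosome 16, 14194527 to 14291408, minus strand) had 62 counts in dE3, 70 in cKO and 33 in WT. It was 2.05-fold higher in cKO than in WT (1.34 to 3.21) and 1.71-fold higher in dE3 than in WT (1.11 to 2.70). The cKO value passed the threshold by a narrow margin on few counts, and the dE3 value fell short. Cnn1 went the other way in point value, at 0.143 CPM in dE3, 0.182 in cKO and 0.313 in WT, but the ratio of dE3 to WT had an interval of 0.122 to 1.46 and that of cKO to WT one of 0.173 to 1.76. A difference in Cnn1 was therefore not detectable at this depth. Summed over these 4 genes, counts were 3.46-fold higher in dE3 than in WT (3.0 to 3.99) and 2.75-fold higher in cKO than in WT (2.38 to 3.19). Without Acta2 the sums were 1.76-fold (1.40 to 2.22) and 2.23-fold (1.79 to 2.79) those of WT, so the order of the 2 mutants turned round.

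Pdgfrb (ENSMUSG00000024620, chromosome 18, 61045150 to 61085061, plus strand), the receptor that draws pericytes to the vessel, had 1478 counts in dE3, 1862 in cKO and 1331 in WT. Its level was 42.2 CPM in dE3, 56.4 in cKO and 41.7 in WT, so the dE3 and WT libraries lay together and cKO above them. The ratio to WT was 1.01 in dE3 (0.939 to 1.09) and 1.35 in cKO (1.26 to 1.45). Notch3 (ENSMUSG00000038146, chromosome 17, 32120820 to 32166880, minus strand), the Notch receptor of mural cells, was the most even of the 9, with 3356 counts in dE3, 3546 in cKO and 3237 in WT. Its ratio to WT was 0.945 in dE3 (0.900 to 0.992) and 1.06 in cKO (1.01 to 1.11). The antisense gene Gm17276, which holds 4.85% of the 50-base words of Notch3, had 45 counts in dE3, 44 in cKO and 45 in WT.

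Rgs5 (ENSMUSG00000026678, chromosome 1, 169655501 to 169695813, plus strand), a GTPase activator that dampens G protein signals in mural cells, had the highest ratio of the 5 pericyte genes in dE3 against WT, one that 17.6% of all measured genes reached. It had 3422 counts (97.6 CPM) in dE3, 2378 (72.0 CPM) in cKO and 2344 (73.4 CPM) in WT. The ratio was 1.33 in dE3 against WT (1.26 to 1.40), 0.982 in cKO against WT (0.927 to 1.04) and 1.36 in dE3 against cKO (1.29 to 1.43). Abcc9 (ENSMUSG00000030249, chromosome 6, 142587862 to 142702315, minus strand) encodes SUR2, the regulatory subunit of an ATP-sensitive potassium channel, and had 1295 counts in dE3, 1049 in cKO and 965 in WT. Its ratio to WT was 1.22 in dE3 (1.12 to 1.33) and 1.05 in cKO (0.963 to 1.15). Kcnj8, which encodes the pore subunit of the same channel and is named for that reason, outside the naming rule, had 10.2 CPM in dE3, 8.84 in cKO and 8.67 in WT. None of these ratios reached 2.

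Vtn (ENSMUSG00000017344, chromosome 11, 78499091 to 78502324, plus strand) encodes vitronectin, an adhesive matrix glycoprotein made by brain pericytes. It had 1706 counts (48.7 CPM) in dE3, 2884 (87.3 CPM) in cKO and 1667 (52.2 CPM) in WT. The cKO library was thus high and the other 2 lay close together. The ratio was 1.67 in cKO against WT (1.58 to 1.78), 0.933 in dE3 against WT (0.872 to 0.999) and 0.557 in dE3 against cKO (0.525 to 0.592). Most counts lay on the coding transcript Vtn-201, with 1661 in dE3, 2755 in cKO and 1635 in WT. The 3 annotated transcripts that retain an intron (Vtn-202, Vtn-203 and Vtn-204) together had 45 counts in dE3, 129 in cKO and 32 in WT. Their sum was 3.90-fold higher in cKO than in WT (2.63 to 5.94), while Vtn-201 was 1.63-fold higher (1.53 to 1.73), and they took 4.47% of Vtn counts in cKO and 1.92% in WT. The split of reads between transcripts is an estimate, and the intervals do not cover that step.

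**Figure D3:**
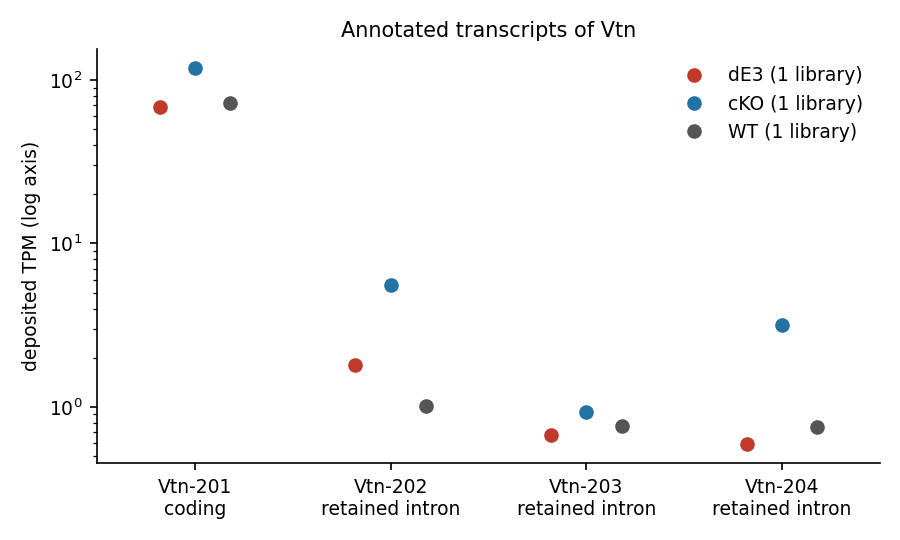
Deposited TPM (log axis) of the 4 annotated transcripts of Vtn in the dE3, cKO and WT libraries, 1 point per library. The cKO point is the highest for each transcript, at 118 TPM for Vtn-201 and 5.56 TPM for Vtn-202.

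**Figure D4:**
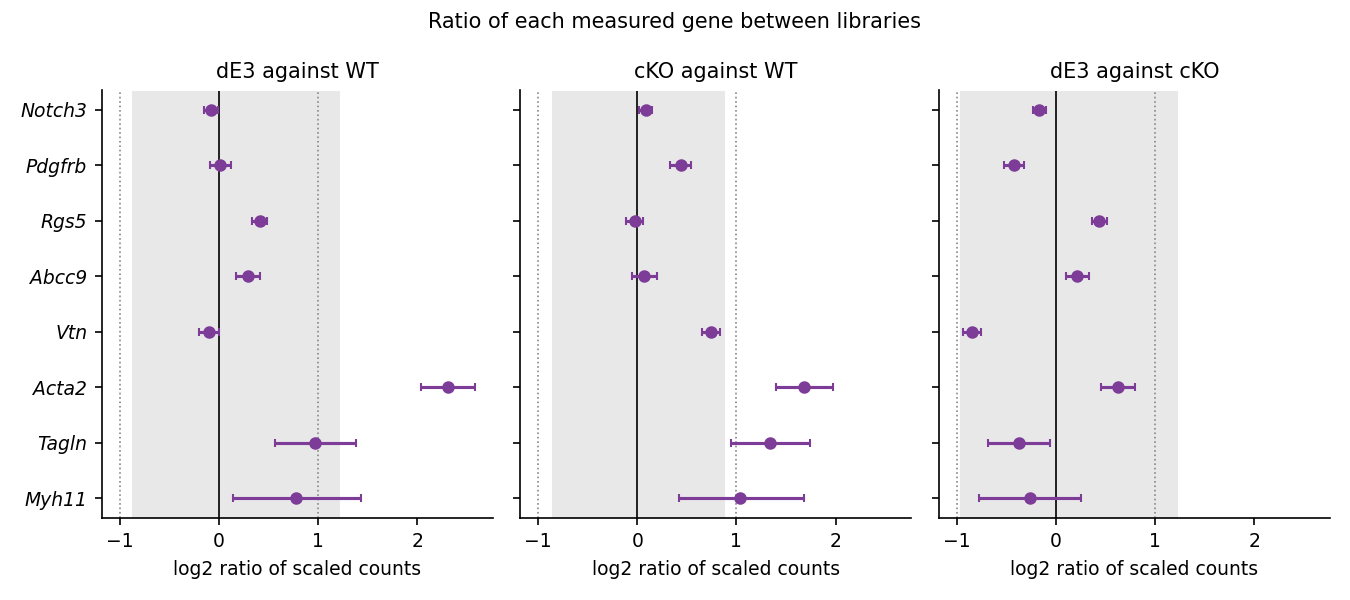
Log2 ratio of scaled counts for the 8 measured genes in 3 comparisons, with the 95% counting interval. The grey band holds the central 90% of all 18074 measured genes and dotted lines mark 2-fold. Acta2 lies outside the band in dE3 against WT, Acta2, Tagln and Myh11 lie outside it in cKO against WT, and no gene lies outside it in dE3 against cKO.

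Endothelial markers were set beside the mural genes. The 16 endothelial markers summed to 349 CPM in dE3, 432 in cKO and 304 in WT, and their median log2 ratio was 0.23 in dE3 against WT and 0.44 in cKO against WT. In dE3 against WT, 1 of 16 was called higher (Robo4, an endothelial guidance receptor, 2.01-fold, 1.73 to 2.35), near the 6.52% of all measured genes. In cKO against WT 0 were called either way, beside 3.50% higher and 3.41% lower among all measured genes. In dE3 against cKO, 1 of 16 was called lower, beside 4.38% of all measured genes, and 0 higher, beside 6.62%. It was Cldn5, the main tight junction claudin of brain vessels, 2.11-fold lower in dE3 than in cKO (1.94 to 2.29). Its level was 24.7 CPM in dE3, 52.1 in cKO and 39.1 in WT. The ratios to WT, 0.631 in dE3 (0.578 to 0.689) and 1.33 in cKO (1.24 to 1.43), were not called. Robo4 was named after its value was seen. Set against the summed endothelial level, the 5 pericyte genes stood at 0.920 in dE3, 0.822 in cKO and 0.984 in WT, and the 4 smooth muscle genes at 0.0780 in dE3, 0.0502 in cKO and 0.0260 in WT. Without Acta2, the other 3 smooth muscle genes stood at 0.0186 in dE3, 0.0191 in cKO and 0.0122 in WT. The order of dE3 above cKO in the sum of 4 thus rests on Acta2. The pericyte genes without Vtn stood at 0.780 in dE3, 0.619 in cKO and 0.812 in WT, with cKO again the lowest. These shares are descriptions of single libraries, and single genes depart from their sum.

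Other pericyte genes mostly stayed within 2-fold of WT, but most lay above it, 10 of 14 in dE3 and 13 of 14 in cKO. Most endothelial markers did too, 13 of 16 in dE3 and 15 of 16 in cKO. Of 14 measured pericyte genes outside the 9, 0 were called higher and 2 lower in dE3 against WT. In cKO against WT 1 was called higher and 0 lower, and the median log2 ratios were 0.23 in dE3 and 0.42 in cKO. Among all measured genes, 6.52% were called higher and 3.78% lower in dE3, and 3.50% and 3.41% in cKO. Cspg4, the NG2 proteoglycan, had 29.2 CPM in dE3, 26.9 in cKO and 14.9 in WT. Its ratio to WT was 1.96 in dE3 (1.75 to 2.18) and 1.80 in cKO (1.61 to 2.02), short of a call. Heyl, a Notch target of mural cells, had 24.9 CPM in dE3, 30.0 in cKO and 17.2 in WT. Colec12, a scavenger receptor, had 30.8 CPM in dE3, 34.5 in cKO and 17.4 in WT. The Colec12 ratio to WT was 1.77 in dE3 (1.60 to 1.97) and 1.99 in cKO (1.79 to 2.20), also short of a call. The adhesion molecule gene Mcam was even, at 32.6 CPM in dE3, 32.4 in cKO and 29.4 in WT. The 2 genes called lower in dE3 were Slc6a20a, an amino acid transporter gene, with 15 counts in dE3, 130 in cKO and 62 in WT, and Atp13a5, a P-type ATPase gene, with 12 in dE3, 27 in cKO and 39 in WT. Slc6a20a was 4.53-fold lower in dE3 than in WT (2.55 to 8.58) and 2.03-fold higher in cKO than in WT (1.49 to 2.79). It was 9.20-fold lower in dE3 than in cKO (5.38 to 16.9), and Atp13a5 2.39-fold lower (1.17 to 5.17). These 2 of 14 were the genes called between the mutants, beside 4.38% of all measured genes called lower and 6.62% called higher.

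The wider smooth muscle list split by gene. Of 16 measured members, 4 were called higher in dE3 against WT (Mylk, Tpm2, Des and Myocd) and 1 in cKO against WT (Des). Among all measured genes, 6.52% were called higher in dE3 and 3.50% in cKO. Of the 16, 0 were lower in either, and the medians were 0.45 and 0.40. Mylk, the kinase that starts contraction by phosphorylating myosin light chain, had 68.2 CPM in dE3, 17.0 in cKO and 10.2 in WT, 6.66-fold higher in dE3 than in WT (5.93 to 7.50). Tpm2, β-tropomyosin, was 4.66-fold higher in dE3 than in WT (3.88 to 5.63), and Des, desmin, was 8.32-fold higher in dE3 (5.73 to 12.5) and 2.18-fold higher in cKO (1.41 to 3.45). Skeletal muscle makes Tpm2 and Des too. Myocd, the myocardin gene, had 65 counts in dE3, 36 in cKO and 22 in WT, 2.69-fold higher in dE3 than in WT (1.64 to 4.59). Its partner Srf had 52.8 CPM in dE3, 56.1 in cKO and 49.8 in WT. The abundant genes Tpm1, Cald1 and Tagln2, which many cells express, had ratios to WT between 0.992 and 1.25 in the 2 mutants. Actg2, the enteric smooth muscle actin, had 19 counts in dE3, 14 in cKO and 0 in WT, below the minimum for a call. Between the mutants, Mylk, Tpm2, Lmod1 and Des were called higher in dE3 than in cKO and 0 were called lower. The shares of all measured genes were 6.62% higher and 4.38% lower.

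Most signals that recruit mural cells were within 2-fold of WT. Of 20 measured ligands and receptors, 1 was called higher in dE3 against WT and 1 in cKO against WT. That is near the shares of all measured genes called higher, 6.52% in dE3 and 3.50% in cKO. Of the 20, 0 were lower in either, and the medians were 0.15 and 0.27. Pdgfb, named as the ligand of PDGFRβ and outside the naming rule, had 13.4 CPM in dE3, 17.6 in cKO and 14.4 in WT. Pdgfc, a ligand of PDGFRα, was the gene higher in dE3, 2.61-fold (2.26 to 3.03), at 20.5 CPM in dE3 against 7.82 in WT. Tgfbr3, a TGF-β co-receptor, was the gene higher in cKO, 2.35-fold (2.04 to 2.72), at 20.1 CPM in cKO against 8.54 in WT. Pdgfra, the receptor of fibroblasts and glial precursors, had 67.4 CPM in dE3, 64.1 in cKO and 43.1 in WT. Notch1 had 242 CPM in dE3, 171 in cKO and 167 in WT, and its ratio to WT was 1.45 in dE3. The TGF-β receptor gene Tgfbr1 had 182 CPM in dE3, 157 in cKO and 159 in WT, and Smad4, which carries the signal to DNA, had 91.3 in dE3, 71.6 in cKO and 82.7 in WT.

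Skeletal muscle, cartilage and mesenchyme surround the cord, and their markers were counted in the same way. Of 17 measured skeletal muscle markers, 16 were called higher in dE3 against WT and 12 in cKO against WT, with 0 lower, and the list summed to 242 CPM in dE3, 77.4 in cKO and 39.8 in WT. Ckm, Myf5, Tnni1 and Tnnc2 were at 0 counts in WT, and Ckm also in cKO. The skeletal actin gene Acta1 and the cardiac actin gene Actc1, which embryonic skeletal muscle also makes, stood at 22.0 and 42.9 CPM in dE3, 7.87 and 9.75 CPM in cKO, and 0.720 and 2.19 CPM in WT. Cartilage markers summed to 1045 CPM in dE3, 492 in cKO and 200 in WT, with 11 of 12 called higher in dE3 and 9 of 12 in cKO, both against WT. Mesenchyme and meninges markers summed to 1538 CPM in dE3, 1765 in cKO and 835 in WT. Of these, 6 of 16 were called higher in dE3 and 4 of 16 in cKO, both against WT. Among all measured genes the shares called higher were 6.52% in dE3 and 3.50% in cKO. Called or not, 15 of the 16 markers lay above WT in dE3 and all 16 in cKO. The part of these tissues in the levels of Acta2, Tagln and Myh11 was not tested.

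Markers of dorsal root ganglia, which adjoin the cord, were also counted. The 9 dorsal root ganglion and Schwann cell markers summed to 265 CPM in dE3, 568 in cKO and 313 in WT, and all 9 lay above WT in cKO. Their median log2 ratio was 0.88 in cKO against WT and -0.32 in dE3 against WT. Microglia markers summed to 61.2 CPM in dE3, 81.4 in cKO and 57.0 in WT, and erythroid markers to 646 CPM in dE3, 736 in cKO and 646 in WT. Floor plate markers summed to 426 CPM in dE3, 975 in cKO and 928 in WT, and neural progenitor markers, which bear on Notch3, to 1628 CPM in dE3, 1452 in cKO and 1701 in WT. The part of these cells in the levels of Vtn, Pdgfrb and Notch3 was not tested.

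**Figure D5:**
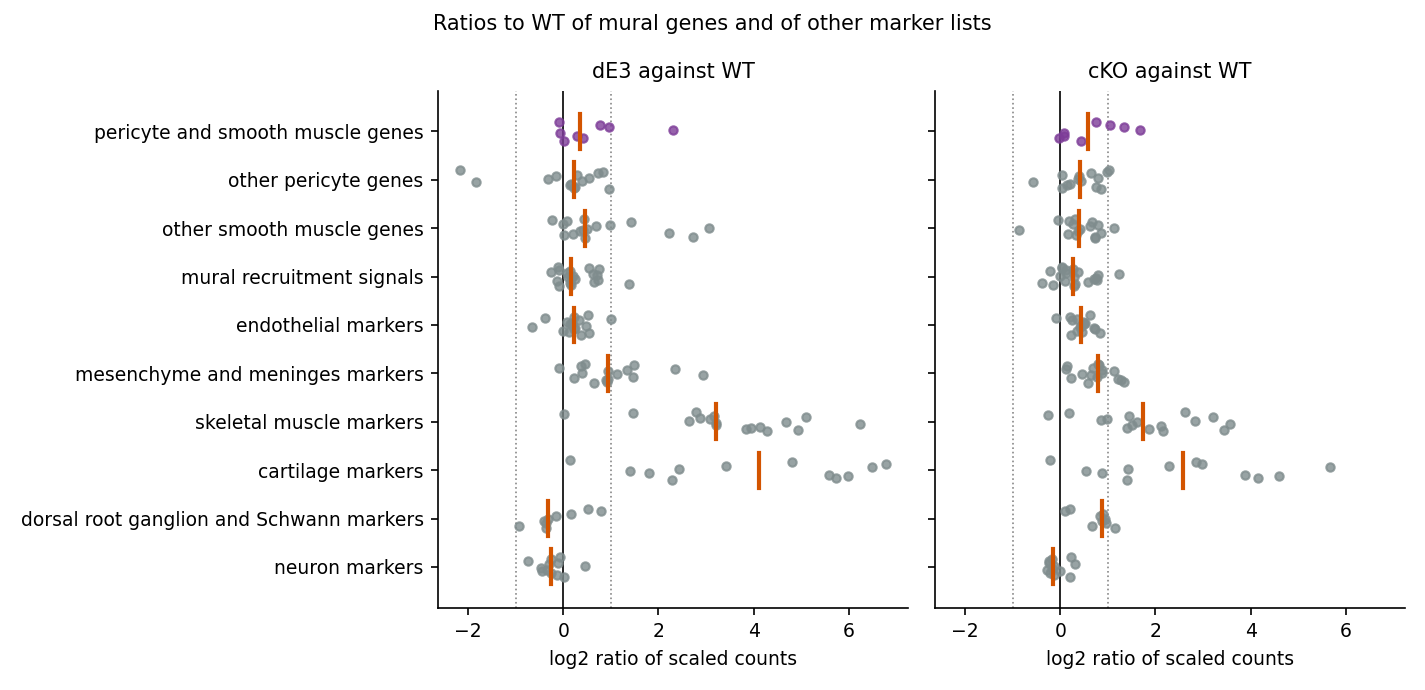
Log2 ratio to WT of single genes (points) and their median (orange bars) for the pericyte and smooth muscle genes (purple) and 9 other lists (grey), in dE3 (left) and cKO (right). A count of 0 was set to 3 counts, and dotted lines mark 2-fold. Skeletal muscle and cartilage markers lie farthest to the right in both panels, and the 8 measured genes reach from -0.10 to 2.31 in dE3 and from -0.03 to 1.68 in cKO.

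The genes nearest to each member in the pair of ratios to WT were also sought, among the genes with at least 100 counts in every library (12885 beside each member that is itself among them), by Euclidean distance on the log2 scale. Counts within a distance cover all of these genes. The nearest genes named are the nearest protein-coding ones, without those that have only a Gm or Rik name. No gene lay within 0.1 of Acta2, and its nearest neighbours were Fibin, a secreted factor gene, and Col2a1, the main cartilage collagen gene, at distances of 0.276 and 0.280. Tagln had 2 genes within 0.1, Col1a1 and the endothelial gene Clec14a, and Myh11 had 12, the nearest being Col18a1 and Tmem9b. Notch3 had 964 genes within 0.1, Abcc9 had 419, Rgs5 had 139 and Pdgfrb had 131, and Vtn had 16, the nearest being Clta and Tk2. The distance rests on 2 ratios that share the WT library, so a small value says little.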

How the data were processed

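Tables of genes and transcripts were analysed for 3 spinal cord libraries, 1 per genotype. Per the labels' protocols, total RNA taken up in Trizol went into an mRNA-seq library kit. CASAVA, Bowtie2 2.3.2 and GRCm38.p6 are named, per the submitters' processing notes, with no role. The authors deposited whole-number estimated counts, and a gene equalled the sum of its transcripts for all 51826 genes. Per the file headers, the authors also deposited TPM, used for levels between genes, and FPKM, not used here.

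Counts were scaled by TMM (edgeR 4.0.16, R 4.3.3; factors 1.01 in dE3, 0.999 in cKO, 0.993 in WT). Ratios had exact conditional binomial (Clopper-Pearson) 95% intervals and levels exact Poisson ones (scipy 1.17.1). They cover counting error only: reads lack molecular identifiers. The call rule was run on simulated counts that held counting error only, so that run cannot check variation between embryos or lanes. A count of 0 was set to 3 counts (0.0856 CPM in dE3, 0.0908 in cKO, 0.0939 in WT). There is no p-value, because no group has a spread. Shared sequence was counted in 50-base words of GENCODE vM21 transcripts, both strands.

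Members and lists were chosen with earlier results of these data known. The text names the 9 members, at most the 4 genes of highest mean CPM in each other list, and called genes of the pericyte, smooth muscle and recruitment lists. Robo4, Acta1, Kcnj8, Pdgfb, Actg2 and the genes at 0 were added after their values were seen.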

Additional observations from a re-analysis of the deposited data

How the results depend on the processing

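Of 78 log2 ratios of single genes under other scalings (total counts, DESeq2 size factors), under the deposited TPM or without the transcript that differed most, 75 stayed inside their counting interval and 3 moved. All 3 were Vtn without Vtn-201, at 0.36 in dE3 against WT, 1.96 in cKO against WT and -1.61 in dE3 against cKO. That setting could be run for Abcc9 and Vtn only, of which 1 (Vtn) was then called higher in cKO against WT and 1 (Vtn) lower in dE3 against cKO. With a threshold of 1.5-fold, 3 of 8 genes were called higher in dE3 against WT and 4 of 8 in cKO against WT, and in dE3 against cKO 1 was higher and 1 lower. Of all measured genes, 11.35% were then higher and 8.01% lower in dE3 against WT, 7.20% and 6.67% in cKO against WT. Between dE3 and cKO the shares were 12.5% higher and 9.53% lower. Among 13967 genes with at least 100 counts in a library, 4.55% were called higher in dE3 against WT, 1.84% in cKO against WT and 3.97% in dE3 against cKO. The shares called lower were 1.76% in dE3 against WT, 1.03% in cKO against WT and 2.56% in dE3 against cKO. Of the 7 members with that count, 1 was called higher in dE3 against WT and 2 in cKO against WT. Myh11, with at most 70 counts, was left out by this filter. The cause of the differences between libraries was not tested. No paired analysis was possible because each genotype has 1 library. Depth limits Cnn1, with at most 10 counts, and Myh11, with 33 in WT.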
